A study of Mus musculus with 3 samples.

Results

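The genes of DNA replication are the 39 members of a list that names the proteins which license origins, unwind DNA, synthesise and join new strands and supply deoxynucleotides. Each was found by its gene symbol in the array annotation, and all 39 were measured, among 20738 named genes in all. They were examined in whole tissue of the proximal jejunum, the stretch of small intestine that follows the duodenum. The mice labelled Sox4 vilCre KO carry, by that label, a knockout of the transcription factor Sox4 through villin-Cre, a recombinase that is active in the intestinal epithelium. The RNA of 3 of them (1 per array, Cy5) was hybridised together with wild-type RNA of the same tissue (Cy3). The labels used here state no strain, age or sex, nor whether the wild-type RNA was pooled. Whole tissue also holds muscle, stroma, blood and immune cells, which villin-Cre does not target, and fewer dividing cells and less RNA per cell cannot be told apart. The files hold 1 log ratio per feature and array, read as log2 of knockout over wild type, so that 0 means equal RNA, 1 means a doubling in the knockout and every value below is a difference, not a level.

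In the small intestine, cells divide in the crypts and stop dividing as they move onto the villi, so replication transcripts come mostly from crypts and, to a smaller extent, from lymphoid cells. Before S phase the origin recognition complex, with Cdc6 and Cdt1, loads the ring of Mcm2 to Mcm7 onto DNA. Cdc45 and the GINS complex then turn this ring into a working helicase. Primase with DNA polymerase alpha begins each strand, polymerases delta and epsilon extend it on the sliding clamp Pcna, and Fen1 and Lig1 join the fragments of the lagging strand. Many of these genes are targets of E2F transcription factors, which are released as cells enter S phase.

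The labels were checked first. Sox4, the targeted gene, had -0.66, 0.18 and -0.46 on arrays 1, 2 and 3 over its 3 features (mean -0.31 ± 0.44, adjusted p = 0.332), and on array 2 the value of the library labelled Sox4 knockout went against its label. Its features disagreed: feature 53932 had -1.21, -0.72 and -0.93, below 0 on every array, while feature 32792 had 0.06, 1.23 and -0.02. The Y-linked gene Eif2s3y had -7.28 ± 0.25 and Xist 1.71 ± 0.18, so the sex of the RNA sources and the genotype cannot be told apart.

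Replication genes lay on both sides of 0, with a small spread. None of the 39 passed limma's test at an adjusted p of 0.05 over all genes, where 0.328% of all genes passed, and the smallest adjusted p among members was 0.0798. The t statistic without limma's moderation called 1 of all genes and 0 members, so its adjusted p says little, and at an unadjusted p under 0.05 it had 3 members higher (7.69%, against 8.16% of all genes) and 2 lower (5.13%, against 8.94%). The 39 members had a median log2 ratio of 0.06, against -0.03 over all genes. With an unadjusted p under 0.05 in limma there were 6 members higher in the knockout, a share of 15.4% where 12.0% of all genes had one, and 3 members lower, a share of 7.69% where 14.3% of all genes had one. Ratios were above 0 on all 3 arrays for 12 members (30.8%, against 23.2% of all genes) and below 0 on all 3 for 9 (23.1%, against 27.3%), and 18 had mixed signs. No direction of the list is read from these shares: without array 1 the share of members below 0 was above that of all genes.

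**Figure D1:**
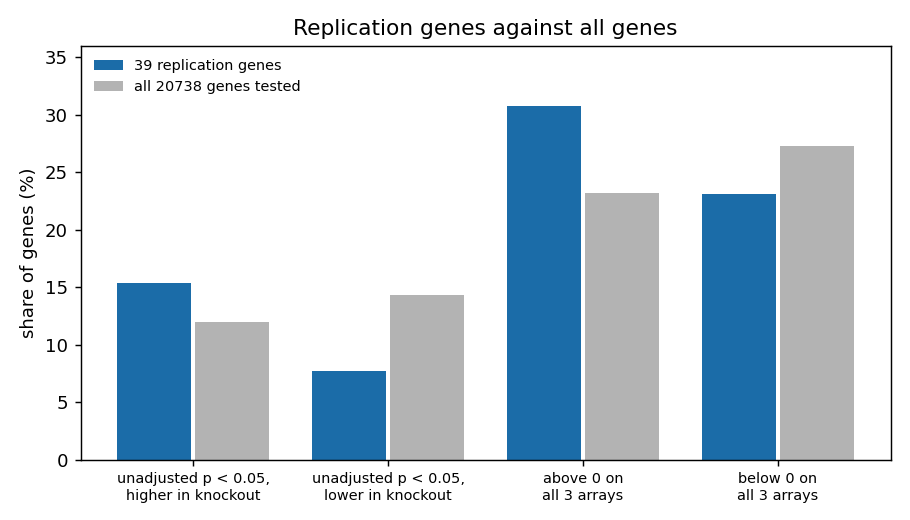
Share of genes in percent (y axis) that met each of 4 criteria (x axis), for the 39 replication genes (blue) and all 20738 genes tested (grey). The shares of the replication genes are 15.4%, 7.69%, 30.8% and 23.1%, beside 12.0%, 14.3%, 23.2% and 27.3% of all genes.

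Differences of the members were small. The means ran from -0.53 to 0.54, and 26 of 39 members (66.7%, against 57% of all genes) had a mean within 0.25 of 0. Leaving aside Prim2, whose arrays disagreed, every 95% interval of the other 38 members lay between -0.78 and 0.82. Counts at the unadjusted threshold rested on few arrays. Without array 1 there was 1 higher member (2.56%, against 7.52% of all genes) and there were 3 lower (7.69%, against 8.25%). Without array 2 there were 3 higher (7.69%, against 10.2%) and 0 lower, where 11.9% of all genes were. Without array 3 there were also 3 higher (7.69%, against 8.46%) and 0 lower, where 10.3% of all genes were. Below 0 on both remaining arrays without array 1 were 17 members (43.6%, against 34.1% of all genes), and 14 were above 0 (35.9%, against 30.5%). The members below 0 numbered 9 without array 2 (23.1%, against 35.9%) and 9 without array 3 (against 36.7%), and those above 0 numbered 19 (48.7%, against 32.6%) and 13 (33.3%, against 30.4%).

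The arrays differed in the height of the whole list. Array 1 had a median of 0.12 over the members, array 2 one of -0.12 and array 3 one of 0.006, and 28, 15 and 21 of the 39 were above 0. Array 2 gave the lowest of the 3 ratios for 22 members and array 1 the highest for 25. Over all 20738 genes the array medians were -0.026, -0.032 and -0.001, and 9681, 9592 and 10245 genes were above 0. Array 2 gave the lowest ratio for 7852 of these 20738 genes and array 1 the highest for 6118. On pairs of arrays the members kept much of their order, with Spearman's rho of 0.43 for arrays 1 and 2, 0.67 for arrays 1 and 3 and 0.68 for arrays 2 and 3 over the 39 genes, which share the same arrays and dye orientation. Pearson's r was 0.00, 0.32 and 0.65 with Prim2 and 0.55, 0.70 and 0.66 without it, where all genes had 0.43, 0.57 and 0.41.

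**Figure D2:**
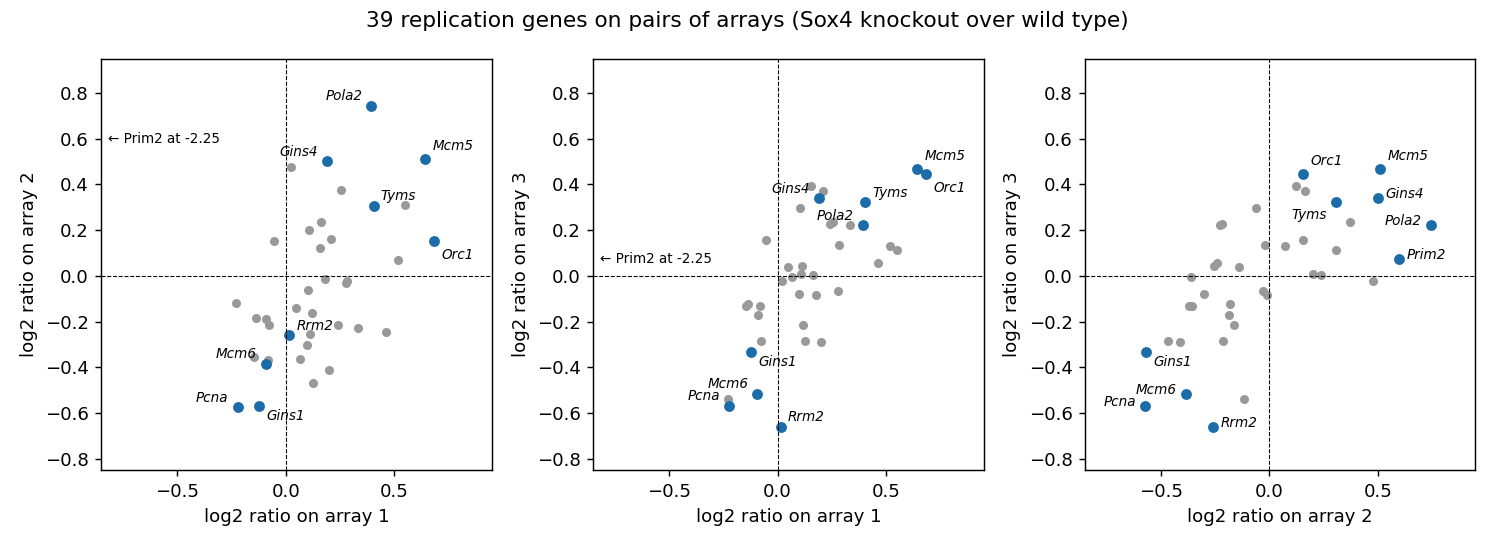
Log2 ratio of knockout over wild type of the 39 replication genes on 2 of the 3 arrays in each panel, with 10 genes named. In every panel Mcm5 lies above and right of both zero lines and Pcna, Mcm6 and Gins1 below and left of them, and Prim2, at -2.25 on array 1, lies outside the axes of the panels that show that array.

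The promoters of Mcm5 and Mcm6, the highest and the lowest subunit of the Mcm ring, are shown because they carry the same E2F-like letters while their ratios lay on opposite sides of 0, a pair picked after its values were seen. The sequences are RefSeq's (build GRCm38.p6), written 5′ to 3′ in the direction of the gene, with capitals marking letters that match TTTCCCGC, TTTCGCGC, TTTGCCGC or TTTGGCGC on either strand. Mcm5 is shown at chr8:75109339-75109458 on the plus strand, at positions -170 to -51 from the start of transcription in that table. Mcm6 is shown at chr1:128359706-128359825 on the minus strand, the 120 bases before the start.
Mcm5: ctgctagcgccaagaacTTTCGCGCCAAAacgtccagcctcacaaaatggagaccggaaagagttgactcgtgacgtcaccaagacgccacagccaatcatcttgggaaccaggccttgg
Mcm6: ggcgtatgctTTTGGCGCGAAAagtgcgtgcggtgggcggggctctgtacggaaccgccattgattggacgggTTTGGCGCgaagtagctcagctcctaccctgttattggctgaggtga

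In each promoter a pair of overlapping matches forms a run of 12 bases, TTTCGCGCCAAA in Mcm5 and TTTGGCGCGAAA in Mcm6, and each run is the reverse complement of the other. Of 16416 genes on the array with a promoter in the table, 4 held this run within the 250 bases before a start, 2 of them members. The table held promoters of 32 of the 39 members. Any of the 4 E2F-like words was found in 8 of these 32 (25%), where 2.77% of the genes on the array held one. Their mean ratios ran from -0.33 to 0.54 with a median of 0.09, and 6 were above 0 and 2 below. The 24 members without such a match ran from -0.45 to 0.45 with a median of 0.01. CCAAT, the letters bound by the factor NF-Y, stood on either strand in 20 of the 32 (62.5%, against 39.2% of genes on the array), with a median ratio of 0.07, and the 12 without it also had a median of 0.07. A match of letters does not show that a factor binds there.

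Among the licensing genes, Orc1 and the other 3 lay on opposite sides of 0. Orc1, the largest subunit of the origin recognition complex, had ratios of 0.68, 0.15 and 0.45 on arrays 1, 2 and 3, all above 0. Its mean was 0.43 ± 0.27 (SD, n = 3, 95% interval 0.07 to 0.78), a 1.35-fold difference with an adjusted p of 0.143. Orc6, the smallest subunit, had -0.14, -0.18 and -0.12, a mean of -0.15 ± 0.03 (adjusted p = 0.417). Cdt1, which brings the Mcm ring to origins, had -0.15, -0.36 and -0.13 (mean -0.21 ± 0.12, adjusted p = 0.298). All 3 arrays were thus below 0 for Orc6 and Cdt1. Cdc6, the ATPase that loads the ring with Cdt1, had 0.12, -0.47 and -0.29 (mean -0.21 ± 0.30), with array 1 apart from the others. Its 2 features disagreed in sign on array 1, with -0.05, -0.61 and -0.33 on feature 8570 and 0.30, -0.33 and -0.24 on feature 9457. Of the 4 licensing genes, 1 had an unadjusted p under 0.05, Orc1 (25%, against 26.3% of all genes in either direction), and their median was -0.18.

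The subunits of the Mcm ring lay on both sides of 0. The SD of their 6 means was 0.31, against 0.38 over all genes. Mcm5 had ratios of 0.64, 0.51 and 0.47, above 0 on every array, with a mean of 0.54 ± 0.09 (95% interval 0.26 to 0.82). This 1.45-fold difference was the largest positive mean of all members, and its adjusted p of 0.0798 was the lowest. Mcm6, which sits in the same ring, had -0.09, -0.39 and -0.52, below 0 on every array, with a mean of -0.33 ± 0.22 (95% interval -0.66 to -0.0018, 1.26-fold lower, adjusted p = 0.189). Mcm5 was the highest and Mcm6 the lowest of the 6 ring subunits on each of the 3 arrays. The gap between them, Mcm5 minus Mcm6, was 0.74, 0.90 and 0.98 (mean 0.87 ± 0.12), a description of a pair picked for its difference. Mcm2 followed Mcm5 with 0.55, 0.31 and 0.11 (mean 0.32 ± 0.22, adjusted p = 0.197). Means near 0 were found for Mcm7 (0.13 ± 0.15), Mcm3 (0.06 ± 0.19) and Mcm4 (-0.09 ± 0.20), and each of these had mixed signs. The 2 features of Mcm3 disagreed, with 0.66, -0.41 and -0.04 on feature 8436 and -0.11, 0.35 and -0.09 on feature 55702.

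GINS is a complex of 4 subunits, and its highest and lowest are a pair picked by their values, so that the sign of their gap follows from the choice. Gins4 had ratios of 0.19, 0.50 and 0.34 and a mean of 0.34 ± 0.16 (95% interval 0.04 to 0.64, 1.27-fold, adjusted p = 0.158). Gins1 had -0.12, -0.57 and -0.33 and a mean of -0.34 ± 0.22 (95% interval -0.67 to -0.01, 1.27-fold lower, adjusted p = 0.183). The arrays of Gins4 were all above 0 and those of Gins1 all below it, and Gins4 minus Gins1 was 0.31, 1.07 and 0.67. Gins3 (0.09 ± 0.12) and Gins2 (-0.09 ± 0.18) had mixed signs. Cdc45, the third part of the active helicase, had 0.52, 0.07 and 0.13 (mean 0.24 ± 0.24, adjusted p = 0.315). Mcm10, which helps to start the assembled helicase, had the mean nearest to 0 of all members, -0.02 ± 0.11.

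**Figure D3:**
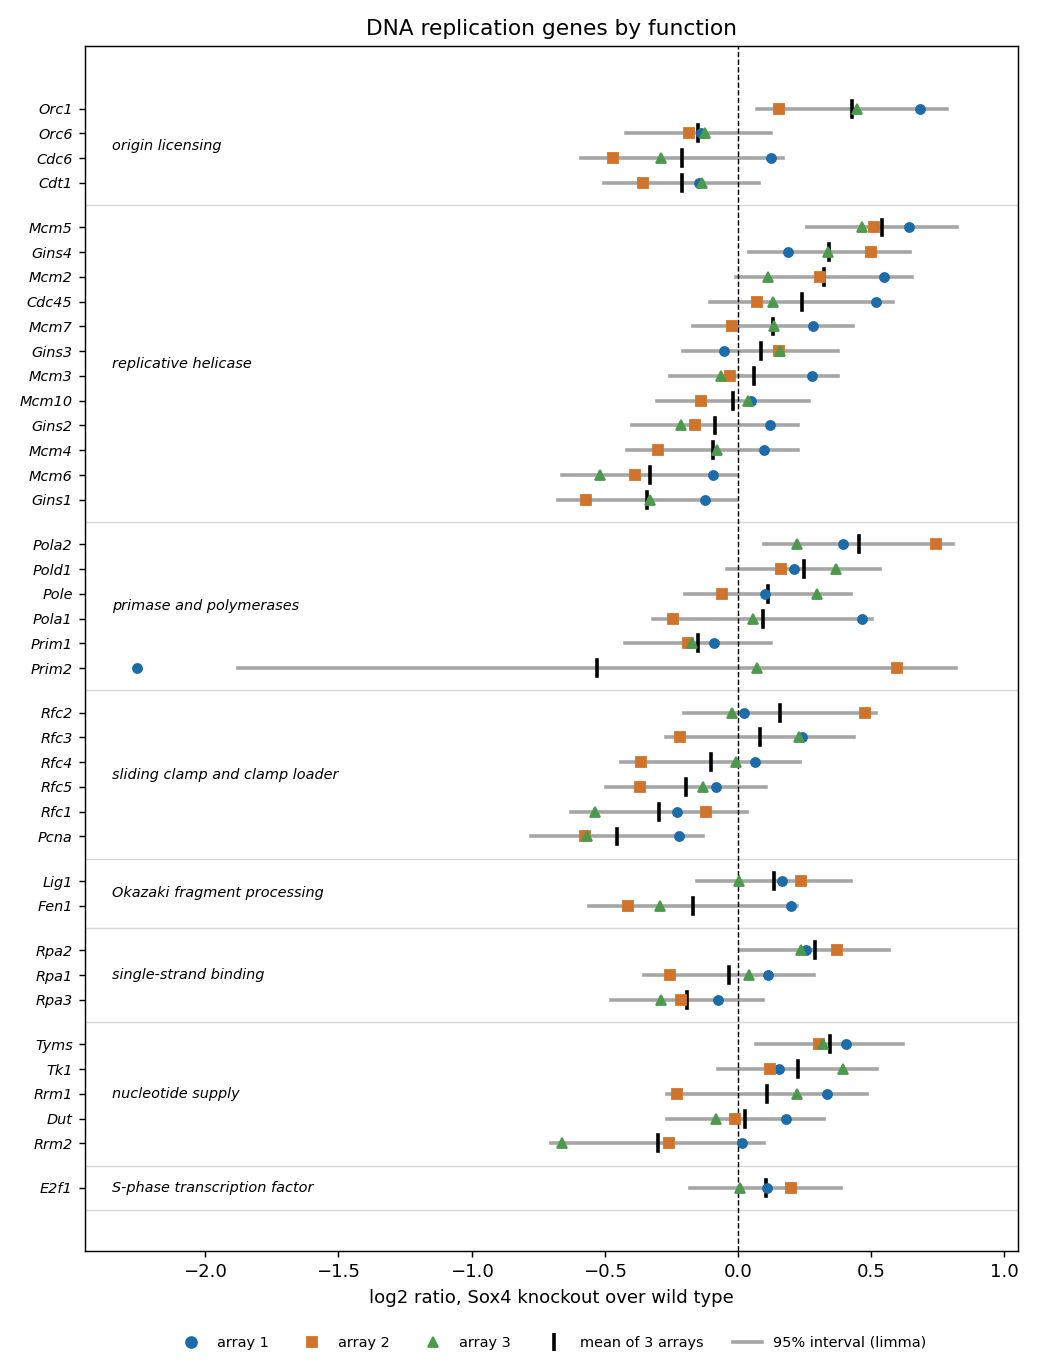
Log2 ratio of knockout over wild type (x axis) for each of the 39 genes, grouped by function, with the 3 arrays as points, the mean as a black tick and the 95% interval of limma's test in grey. Within the helicase, Mcm5 and Gins4 lie above 0 and Mcm6 and Gins1 below 0 on all 3 arrays, and the 3 points of Prim2 span 2.85.

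Of the genes that prime and synthesise DNA, Pola2 had the highest mean. This gene of the second subunit of DNA polymerase alpha had 0.39, 0.74 and 0.22, all above 0, with a mean of 0.45 ± 0.27 (95% interval 0.10 to 0.81, 1.37-fold, adjusted p = 0.133). Its catalytic partner Pola1, the 1 member on the X chromosome, had 0.46, -0.24 and 0.06 (mean 0.09 ± 0.36), with array 2 on the other side of 0. Prim1, the catalytic primase subunit, had -0.09, -0.19 and -0.17 (mean -0.15 ± 0.05, adjusted p = 0.416), below 0 throughout. Prim2, the large primase subunit, had -2.25, 0.60 and 0.07, the widest spread of any member. Its mean of -0.53 ± 1.52 rested on array 1 and became 0.34 without it, and 1 feature stands for the gene. Pold1, the catalytic subunit of polymerase delta, had 0.21, 0.16 and 0.37 (mean 0.25 ± 0.11, adjusted p = 0.235). Pole, that of polymerase epsilon, had a mean of 0.11 ± 0.18, and its 3 features averaged 0.53, -0.22 and 0.03.

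The sliding clamp had the lowest mean apart from Prim2. Pcna, the ring that holds polymerases on DNA, had -0.22, -0.57 and -0.57, all below 0, with a mean of -0.45 ± 0.20 (95% interval -0.78 to -0.13, 1.37-fold lower, adjusted p = 0.114). The clamp loader, which opens this ring, had a median of -0.10 over its 5 subunits. Rfc1, the large subunit, had -0.23, -0.12 and -0.54 (mean -0.30 ± 0.22, adjusted p = 0.223), and Rfc5 had -0.08, -0.37 and -0.13 (mean -0.19 ± 0.15, adjusted p = 0.346), both below 0 on every array. Rfc2 (0.16 ± 0.28), Rfc3 (0.08 ± 0.26) and Rfc4 (-0.10 ± 0.23) had mixed signs. Of the 6 genes of this group, 0 lay above 0 on all arrays, where 23.2% of all genes did, and 3 below (50%, against 27.3%). With 6 genes these shares say little.

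Fragment joining and strand protection gave small values. Fen1, the flap nuclease, had 0.20, -0.41 and -0.29 (mean -0.17 ± 0.32, adjusted p = 0.521), and the ligase gene Lig1 had 0.16, 0.24 and 0.005 (mean 0.14 ± 0.12). Within RPA, the complex that coats single-stranded DNA, Rpa2 had 0.26, 0.37 and 0.24, a narrow spread above 0 (mean 0.29 ± 0.07, 95% interval 0.01 to 0.57, adjusted p = 0.181). Rpa3 had -0.08, -0.21 and -0.29 (mean -0.19 ± 0.11, adjusted p = 0.331), and Rpa1 had -0.03 ± 0.20 with 2 features that gave nearly the same values. Rpa2 minus Rpa3 was 0.33, 0.59 and 0.52, for the highest and lowest subunit of RPA, so that the sign of the gap follows from the choice.

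In nucleotide supply, Tyms, the thymidylate synthase gene, was the most even. It had 0.41, 0.31 and 0.32 and a mean of 0.34 ± 0.05 (95% interval 0.07 to 0.62, 1.27-fold, adjusted p = 0.135). Thymidine kinase Tk1 had 0.16, 0.12 and 0.39 (mean 0.22 ± 0.15, adjusted p = 0.287), also above 0 on every array. The ribonucleotide reductase genes did not follow it. Rrm2, the small subunit made in S phase, had 0.02, -0.26 and -0.66 (mean -0.30 ± 0.34, adjusted p = 0.285), and Rrm1, the large subunit, had 0.33, -0.23 and 0.22 (mean 0.11 ± 0.30). Dut, the dUTPase gene, had 0.03 ± 0.14. E2f1, a transcription factor of S-phase genes and the 1 regulator on the list, had 0.11, 0.20 and 0.006 (mean 0.10 ± 0.10, adjusted p = 0.581).

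Other genes of the same pathway, 52 measured of 53 listed, had values on both sides of 0 as well. None passed limma's test over all genes. At an unadjusted p under 0.05, 9 were higher (17.3%, against 12.0% of all genes) and 3 lower (5.77%, against 14.3%). The median was 0.00, with array medians of 0.08, -0.11 and 0.05. Pold2, the second subunit of polymerase delta, had the smallest p. Its ratios were 1.10, 0.97 and 0.80, a mean of 0.95 ± 0.15 (adjusted p = 0.0543), higher than any member. The topoisomerase gene Top2a had 0.61 ± 0.25 (adjusted p = 0.0863), the pyrimidine synthesis gene Cad 0.59 ± 0.24 (adjusted p = 0.0882) and the histone chaperone gene Chaf1a 0.43 ± 0.11 (adjusted p = 0.105). Subunits of 1 complex lay apart here too, as Orc5 had 0.49 ± 0.28 and Orc4 -0.41 ± 0.24, a pair singled out after its values were seen.

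Among 28 genes of E2F and S-phase control, none passed limma's test over all genes, and the median was 0.11. At an unadjusted p under 0.05, 9 were higher (32.1%, against 12.0% of all genes) and 3 lower (10.7%, against 14.3%). The pocket protein gene Rbl2, which holds E2F factors in check, had 0.95 ± 0.27 (adjusted p = 0.0634). The E2F gene E2f4 had 0.80 ± 0.27 and the cyclin genes Ccnd1 and Ccna2 0.78 ± 0.26 and 0.51 ± 0.32. The 3 lower genes were Rbl1 (-0.35 ± 0.12), Rb1 (-0.35 ± 0.23) and Tfdp2 (-0.36 ± 0.16), each below 0 on every array. Rbl1 and Rb1 are pocket protein genes too, so this family lay on both sides of 0. Mitosis genes gave higher values, with a median of 0.40 over 24 measured genes. At an unadjusted p under 0.05, 11 were higher (45.8%, against 12.0% of all genes) and 0 lower, where 14.3% of all genes were. On all arrays 12 were above 0 (50%, against 23.2% of all genes) and 0 below, where 27.3% of all genes were. No mitosis gene passed limma's test over all genes. Cenpf, a kinetochore gene, had 0.98 ± 0.21 (adjusted p = 0.0564), the spindle gene Hmmr 0.70 ± 0.11, the kinase gene Plk1 0.64 ± 0.26 and the mitotic regulator gene Foxm1 0.59 ± 0.14. Array 2 gave the lowest ratio for each of the 24, where it did so for 7852 of all 20738 genes. The medians of the mitosis genes were 0.53, -0.01 and 0.58 on arrays 1, 2 and 3. Whether mitosis and replication genes differ was not tested.

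**Figure D4:**
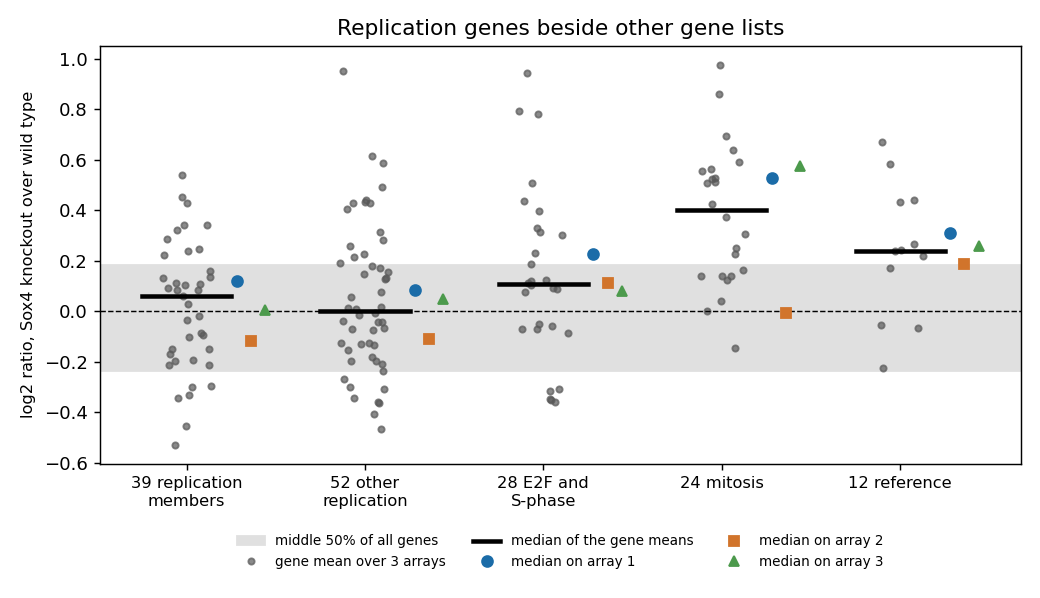
Log2 ratio of knockout over wild type (y axis) for the genes of 5 lists, with each gene's mean over 3 arrays as a grey point, the list median as a black bar, the median on each array as a coloured symbol and the middle 50% of all genes as a band. The medians are 0.06 for the replication members, 0.00 for other replication genes, 0.11 for E2F and S-phase genes, 0.40 for mitosis genes and 0.24 for reference genes.

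The 12 measured reference genes, of the kind used to scale RNA assays, had a median of 0.24 (array medians 0.31, 0.19 and 0.26). Polr2a (0.67 ± 0.22), Pgk1 (0.43 ± 0.11), Rplp0 (0.44 ± 0.21) and Gapdh (0.58 ± 0.48) had the smallest p. The reference genes disagreed in sign, with 9 means above 0 and 3 below. Those below were Hprt (-0.22 ± 0.09, below 0 on every array), Ppia (-0.07 ± 0.06) and Ywhaz (-0.05 ± 0.45). Centring each array on the median of the reference genes instead moved the median of all genes to -0.28 and that of the members to -0.19. The median of the 24 mitosis genes became 0.15. Of these, 10 were then above 0 on all arrays and 3 below, against 6.92% and 55.8% of all genes. On this scale 7 members passed, all lower in the knockout (17.9%, where 21.1% of all genes passed). These 7 were Pcna (-0.71), Gins1 (-0.59), Mcm6 (-0.58), Rfc1 (-0.55), Cdt1 (-0.46), Rfc5 (-0.45) and Rpa3 (-0.44). The 6 members with an unadjusted p under 0.05 and positive ratios, Mcm5, Pola2, Orc1, Tyms, Gins4 and Rpa2, stayed above 0 on this scale, from 0.04 for Rpa2 to 0.29 for Mcm5, as did Mcm2, while Cdc45, Pold1, Tk1, Lig1 and E2f1 were below 0.

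Among markers of other cell types, adipocyte and erythroid genes passed the threshold, and the part of any of these lists in the replication values was not tested. Over all genes, 0.328% passed the threshold, 23.2% were above 0 on all arrays and 27.3% below. Adipocyte markers had a median of -2.09, with 6 of 7 below 0 on all arrays (85.7%) and Adipoq, Cfd, Retn and Plin1 past the threshold. Erythroid markers had -1.29, with 5 of 6 below 0 on all arrays (83.3%) and Hbb-bs and Hbb-bt past the threshold. T cell markers had a median of -0.49, with 6 of 8 below 0 on all arrays (75%) and 1 above (Gzma -0.77 ± 0.09, Cd4 0.23 ± 0.10). Pancreatic acinar markers had -0.33, with 6 of 9 below 0 on all arrays (66.7%) and 1 above (Try5 -1.72 ± 0.46, Ctrb1 0.41 ± 0.29). Smooth muscle markers had -0.17 with 0.30 on array 2, and 2 of 8 were below 0 on all arrays (25%) and 0 above (Cnn1 -0.43 ± 0.25, Acta2 0.16 ± 0.38). B and germinal centre cell markers, which include cells that can divide, had a median of 0.27 over 7 genes. On all arrays 4 of them were above 0 (57.1%) and 1 below (14.3%). Named here are Fcer2a (0.46 ± 0.08), Cd79a (0.78 ± 0.54), Cr2 (0.27 ± 0.14) and the germinal centre gene Bcl6 (-0.35 ± 0.20). Crypt stem cell markers had a median of 0.02 over 9 genes, with 3 above 0 on all arrays (33.3%) and 1 below (11.1%). Those with the smallest p were Olfm4 (0.61 ± 0.32), Ascl2 (0.38 ± 0.04), Znrf3 (0.35 ± 0.07) and Lgr5 (-0.43 ± 0.34). Absorptive enterocyte markers had -0.22 over 13, with 5 means above 0 and 8 below (Anpep 0.83 ± 0.15, Vil1 0.48 ± 0.14, Apoa1 0.41 ± 0.30, Lct -0.47 ± 0.45). On all arrays 4 of them were above 0 (30.8%) and 1 below (7.69%). Ratios give no levels, so absence of a defining marker cannot be read from them.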

How the data were processed

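The deposited table holds log2 ratios of the 2 channels for 62976 features on 3 two-colour arrays. Background correction, normalization, filters, log base and ratio direction, as the authors set them, are not given in the sources used. Base 2 was taken because values from -7.44 to 5.62 are too wide for base 10, and the natural logarithm would make each fold larger. Cy5 over Cy3 was taken from the dye labels, and the opposite would turn every sign. Array medians of 0.007, 0.003 and 0.011 lie near 0, and no further scaling was applied.

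Names came from the platform annotation, updated through RefSeq (GRCm38.p6, for names and promoters). Features of a gene were averaged on each array, giving 20738 genes; 34 members rest on 1 feature and 5 on several. limma 3.58.1 under R 4.3.3 compared the mean ratio with 0 (2 residual and 3.51 prior degrees of freedom, two-sided), with Benjamini-Hochberg adjustment over all genes and a threshold of 0.05. The scripts were tested on simulated data. No intensities were used here, so dim features remain, and precision is limited by having 3 arrays. All arrays have 1 dye orientation, so a dye effect of a gene cannot be told apart from genotype, and wild-type spread is left out. The labels name different knockout mice but no separate wild-type ones. Members and lists were chosen with earlier results of these data known. Full statistics went to the 10 members with the smallest p and to 1 per function where none was among them. Members opposite in sign to the list's median on all arrays also had them, and the other members were given in brief. In other lists up to 4 genes with the smallest p were named, beside some further genes shown for the sign of their values. Tables used Python 3.11.15 with numpy 2.4.6 and pandas 2.3.3, and plots matplotlib 3.10.9.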

Additional observations from a re-analysis of the deposited data

How the results depend on the processing

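No paired analysis was possible because the arrays form 1 group. Of 12 alternatives, the count of members past the adjusted threshold was 0 in 11 and 7 when arrays were centred on the reference genes, of which 12 of 13 were used. The 0 says little where few genes pass: 10, 66 and 4 of all genes did without arrays 1, 2 and 3, and 1 by the t statistic without moderation. Centring on the reference genes gave 1 member higher and 15 lower at an unadjusted p under 0.05, 2 above and 22 below 0 on all arrays and a median of -0.19; these are 2.56%, 38.5%, 5.13% and 56.4% of members, against 2.85%, 39.8%, 6.92% and 55.8% of all genes. Leaving out 1 array gave 1 to 3 members higher and 0 to 3 lower at an unadjusted p under 0.05, 13 to 19 above and 9 to 17 below 0, and a median between -0.05 and 0.05. That t statistic gave 3 members higher. Centring on all named genes gave 1 lower (2.56%, against 13.1% of all genes). A fit that held unnamed features also gave 1 lower (2.56%, against 9.65% of all that entered it). Among genes with at least 2 features, 5 were members, with 0 higher, 0 lower, 0 above and 0 below. Each of these criteria was met by at most 27.5% of all such genes, so counts of 0 among 5 members say little. The adjusted p of Mcm5 ran from 0.0613 to 0.291 and its unadjusted p was under 0.05 in all 11 alternatives that hold it; for Pcna, -0.71 to -0.39, the adjusted p ran from 0.0295 to 0.307.

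The sign of a mean turned as follows. Leaving out 1 array in turn gave means of -0.047 to 0.123 for Mcm3, -0.19 to 0.009 for Mcm4, -0.051 to 0.043 for Mcm10, -0.093 to 0.261 for Pola1, -1.09 to 0.336 for Prim2, -0.0005 to 0.249 for Rfc2, -0.184 to 0.029 for Rfc4, -0.107 to 0.077 for Rpa1, -0.0035 to 0.278 for Rrm1 and -0.048 to 0.084 for Dut; Mcm3, Pola1, Prim2, Rrm1 and Dut turned without array 1 and the others without array 2. Centred on all named genes, Mcm10 had 0.002. Centred on the reference genes, the means were -0.19 for Mcm3, -0.12 for Mcm7, -0.013 for Cdc45, -0.17 for Gins3, -0.16 for Pola1, -0.0049 for Pold1, -0.14 for Pole, -0.094 for Rfc2, -0.17 for Rfc3, -0.12 for Lig1, -0.14 for Rrm1, -0.028 for Tk1, -0.22 for Dut and -0.15 for E2f1. The cause was not tested. Signal over background, which would limit dim genes, was not used here.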
